A study of Neurospora crassa OR74A with 26 samples.

Results

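Of the 9733 genes measured in the filamentous fungus Neurospora crassa, 177 were far higher on fresh sucrose than on Avicel or without carbon. Their name here, high only on fresh sucrose, stands for this ratio, and some of these genes were still abundant on the other media. The 177 genes were chosen from wild-type libraries taken 4 h after a change of medium. A gene was a member if its mean on sucrose was at least 50 FPKM (fragments mapped to a transcript, scaled to its length and to the depth of the library) and if that mean plus 1 was at least 16 times the mean plus 1 on both Avicel and medium without carbon. Of the 5575 genes at or above 50 FPKM on sucrose at 4 h, 199 met the fold against Avicel and 251 met the fold against no carbon. The choice rests on these 9 libraries, so their values are given below as a description without a test. The tests compare the 1 h libraries and the deletion strains, which the choice did not use. The 9 libraries still enter the shared estimate of the spread, so standard errors and p-values are not free of the choice.

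Mycelium was grown from conidia for 16 h in sucrose medium, washed, and moved to Avicel (microcrystalline cellulose), to medium with no carbon source, or to fresh sucrose. A clr-1 deletion strain and a clr-2 deletion strain, in which a hygromycin resistance cassette stands in place of the reading frame, were each sampled at 1 h and 4 h on either carbon source, with 1 library for each condition. Wild type was sampled on Avicel at 30 min (1 library), 1 h (3), 2 h (1) and 4 h (3), without carbon at 1 h (1) and 4 h (3), and after transfer to sucrose at 1 h (3) and 4 h (3). CLR-1 and CLR-2 are zinc binuclear cluster transcription factors required for the induction of cellulase genes. All cultures, the deletion strains included, shared the growth on sucrose before the transfer.

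A fungal cell that is given a rapidly used sugar makes ribosomes and the building blocks of protein, nucleic acid and membrane, and a cell that loses its carbon source lowers the messages for these tasks. In fungi, genes for amino acid synthesis also answer to general amino acid control, which in Neurospora acts through the bZIP activator CPC-1. Ribosomal protein genes are among the most abundant messages of growing hyphae. These points are background from other work.

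The libraries held 11.8 to 110.6 M reads, recovered from the deposited coverage. Replicate 1 of the wild-type Avicel and sucrose groups, and the single libraries at 30 min and 2 h, had reads of 36 or 40 bases, against 50 or 51 bases elsewhere. Pearson r of log2(FPKM + 1) across genes was 0.938 to 0.976 between replicate 1 and the others in those groups, against 0.992 to 0.994 between replicates 2 and 3. As a check of the strains, clr-2 was listed at 0 FPKM in the 4 clr-2 deletion libraries, and clr-1 had 6.13 to 23.1 FPKM in the 4 clr-1 deletion libraries, against 22.3 to 950.3 FPKM in wild type across media. On sucrose, clr-1 had 13 FPKM in the clr-1 deletion at 1 h, against 22.3 to 59.3 FPKM in wild type, and 23.1 FPKM at 4 h, against 40.4 to 53.0 FPKM in wild type. In bulk RNA, fewer cells of a type and less RNA per cell cannot be told apart.

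At 4 h in wild type, the 177 genes took up 2.56%, 0.744% and 0.745% of the summed FPKM on Avicel and 2.13%, 1.02% and 1.12% without carbon, against 15%, 23.1% and 22.8% on sucrose. Replicate 1 on Avicel, a short-read library, stood above the other Avicel libraries. The members spanned 50.3 to 46965 FPKM in mean level on sucrose at 4 h, with a median of 1054 FPKM. In this group 41 genes were at 10000 FPKM or more, 49 were between 1000 and 10000 FPKM, and 87 were under 1000 FPKM. The smaller of a member's folds over Avicel and no carbon had a median of 24.2. Just inside the fold threshold were ods, NCU01367 and NCU06743 with 16.0, 16.1 and 16.1 times, and just outside were NCU06210, NCU08685 and NCU06553 with 15.9 times each. NCU06743 still had a mean of 1620 FPKM on Avicel and 1322 FPKM without carbon at 4 h, against 26038 FPKM on sucrose. The members with the lowest levels were NCU00149, NCU01651 and NCU09852 at 50.3, 78.3 and 110.9 FPKM. The fold over no carbon was highest for NCU03561 (722.4 times), followed by ilv-2 (222.2 times). Over all tested genes, limma called 24.2% lower on Avicel and 23.6% lower without carbon than on sucrose at 4 h, and nothing is read from this about the members, which the same libraries chose.

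**Figure D1:**
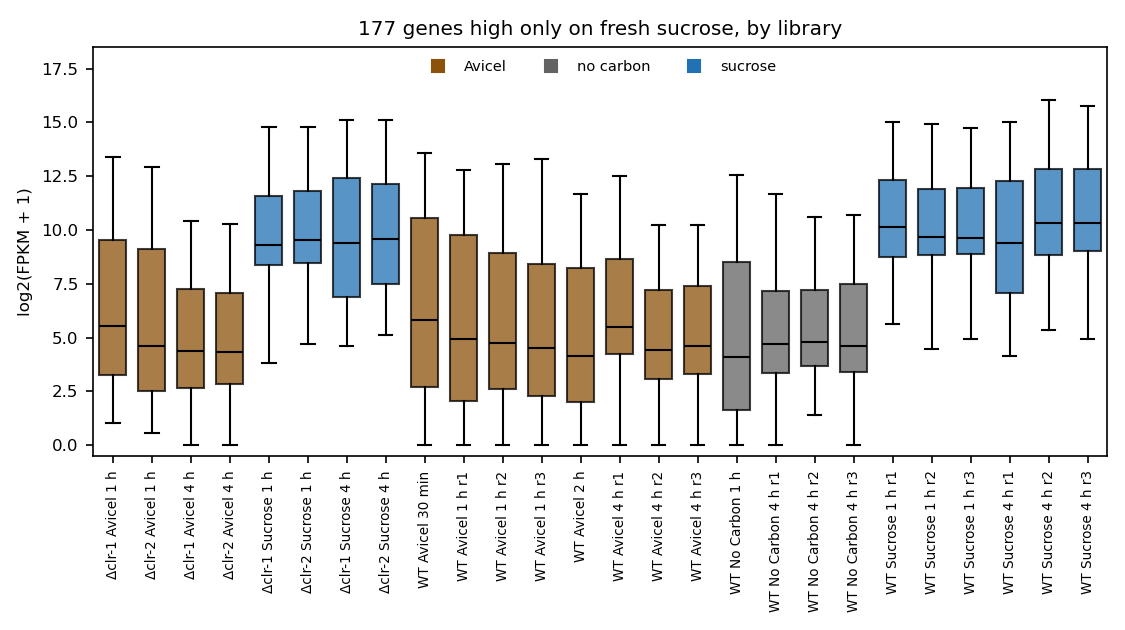
log2(FPKM + 1) of the 177 members in each of the 26 libraries, the deletion strains left of wild type; boxes span the quartiles, the line is the median and whiskers reach the lowest and highest member. Avicel is brown, no carbon grey and sucrose blue; in the libraries that the choice did not use, the median member had 21.6 to 54.5 FPKM on Avicel at 30 min and 1 h in wild type, against 779.9 to 1136 FPKM on sucrose at 1 h.

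At 1 h after the transfer, in libraries that played no part in the choice, most members were already lower on cellulose than on sucrose in wild type. Of the 177 members, 172 fell on Avicel relative to sucrose and 0 rose, with a limma adjusted p under 0.05 over 8629 tested genes. Among all tested genes, 24.6% fell and 37.3% rose. The median log2 difference was -4.87 for members and 0.34 for all tested genes. All Avicel libraries lay below all sucrose libraries for 169 members, and for 26.8% of tested genes. Members were 3.39%, 4.56% and 4.15% of the summed FPKM on Avicel at 1 h, against 17.3%, 15.3% and 15.5% on sucrose. All 177 members passed the filter on low values, a mean of 1 FPKM over all libraries. That mean includes the sucrose libraries at 4 h that chose the members, so passing was fixed by the choice.

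**Figure D2:**
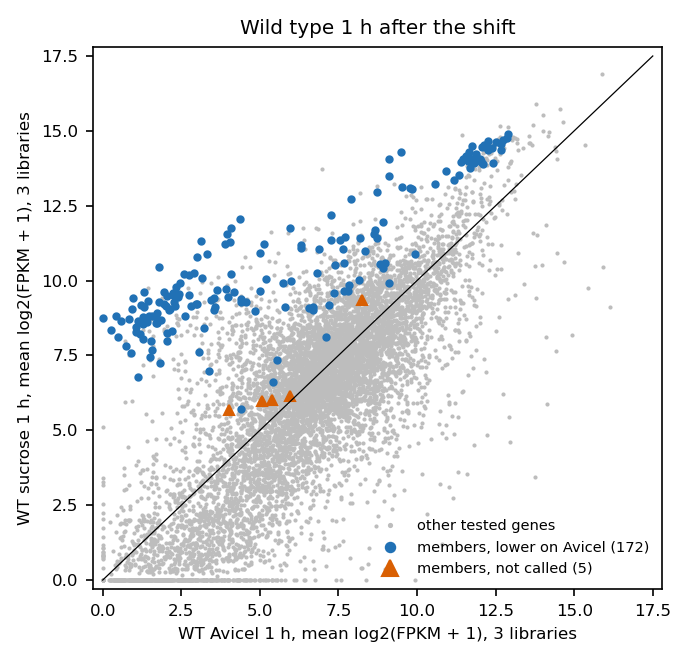
Mean log2(FPKM + 1) of 3 wild-type libraries at 1 h on Avicel (horizontal) and on sucrose (vertical), for tested genes outside the members (grey), for the 172 members called lower on Avicel (blue circles) and for the 5 members not called (orange triangles); the line marks equal values. Members lie above the line, and the most abundant of them lie closer to it than the members below 1000 FPKM.

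Genes used as markers of conidiation had a higher summed FPKM on Avicel and without carbon than on sucrose. Most of the sum at 1 h was ccg-1, at 97.2% to 98.6% on Avicel and 94.7% to 97.8% on sucrose. At 4 h in wild type ccg-1 was 58.7%, 86.1% and 88.1% on Avicel and 93.7%, 74.8% and 61.4% on sucrose. Without carbon at 4 h it was 74.9% and 80.5% in replicates 2 and 3. In replicate 1 eas, at 206272 FPKM, stood above ccg-1, at 171706 FPKM. The sum at 1 h was thus mainly the level of 1 gene, and whether it follows conidiation was not tested. The summed FPKM of the 7 markers found, con-6, con-10, con-13, eas, ccg-1, fl and acon-3, was 89373 to 157368 on Avicel and 341120 to 381325 without carbon at 4 h in wild type, against 534.5 to 1775 on sucrose. It was 6001 to 25316 on Avicel at 1 h, against 1355 to 4797 on sucrose at 1 h. In the deletion strains it was 161005 and 169949 on Avicel at 4 h, against 5052 and 6023 on sucrose, and 23436 and 28422 on Avicel at 1 h, against 3597 and 3483 on sucrose. Single markers did not all follow the sum at 1 h. eas, the hydrophobin gene, had 26.2, 36.7 and 29.4 FPKM on Avicel at 1 h in wild type, against 0, 156.6 and 125.6 FPKM on sucrose. fl had 24.7, 71.8 and 59.1 FPKM on Avicel, against 30.0, 60.6 and 49.1 FPKM on sucrose, and the groups overlapped for both genes. At 4 h on Avicel eas had 34620, 20371 and 17326 FPKM in wild type, against 62.5, 388.1 and 154.8 FPKM on sucrose. con-13 was listed at 0 in every sucrose library. The part of these markers in the members' values was not tested.

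The 5 members without a call at 1 h on Avicel were NCU00149, arg-10, lao, NCU08473 and NCU09648. With the replicate number as a block in a fit of the 6 libraries of the comparison, NCU00149 and arg-10 were called as well, which gave 174 members. That fit was chosen after the values were seen and leaves 2 residual degrees of freedom. The same block in a fit of the 5 triplicates changed no call. NCU09648 had 63.0, 64.1 and 55.7 FPKM on Avicel at 1 h, against 48.6, 88.5 and 76.7 FPKM on sucrose at 1 h, and the groups overlapped. Its log2 difference was -0.18 ± 0.27 (SE, adjusted p = 0.58). At 4 h it stood at 16.5, 10.3 and 8.68 FPKM on Avicel, against 463.6, 407.1 and 359.0 FPKM on sucrose, which are the libraries that made it a member.

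Without any carbon source, 166 members fell relative to sucrose at 1 h and 0 rose. Among all tested genes 23.4% fell and 35.5% rose. The median difference was -5.42 in members and 0.44 in all tested genes. The no-carbon group is 1 library, its spread is taken from the other groups, and it is compared with the same sucrose libraries as Avicel at 1 h. The no-carbon library lay below all sucrose libraries for 174 members, and for 35.4% of tested genes. That library lists 12 members at 0 FPKM. One of them, NCU07547, had 1129, 912.4 and 877.7 FPKM on sucrose at 1 h.

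The symbols of 40 members come from the RefSeq gene table, and 172 members are in that table. The first group described is that of protein synthesis. The cytosolic ribosomal protein genes crp-4, crp-10 and crp-15 and cpc-2, whose product is a ribosome-associated protein of the RACK1 type, all fell on Avicel at 1 h, by 1.95 to 2.76 on the log2 scale. crp-15 had 3060, 5143 and 2568 FPKM on Avicel at 1 h, against 25814, 23754 and 20666 FPKM on sucrose at 1 h. The groups did not overlap, and the log2 difference was -2.76 ± 0.55 (SE, adjusted p = 0.00062). At 4 h crp-15 stood at 3704, 767.9 and 811.3 FPKM on Avicel, against 20248, 36108 and 38764 FPKM on sucrose. Of the 7 genes with a crp symbol, 3 were members, and all 7 fell on Avicel at 1 h.

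Enzymes of amino acid synthesis formed the largest group of members with a symbol, 16 genes. On Avicel at 1 h 15 of them fell and arg-10 was not called, with a median log2 difference of -2.34. The branched-chain pathway to valine, isoleucine and leucine included ilv-2, which encodes acetohydroxy acid reductoisomerase, leu-2 for isopropylmalate isomerase and leu-1 for isopropylmalate dehydrogenase; ilv-4 and ilv-6 were members too. ilv-2 had 860.0, 1016 and 447.4 FPKM on Avicel at 1 h, against 15228, 7427 and 6413 FPKM on sucrose at 1 h. The groups were far apart, with a log2 difference of -3.62 ± 0.43 (SE, adjusted p = 9.1e-06). leu-2 had 111.9, 132.1 and 71.4 FPKM on Avicel, against 1136, 423.6 and 365.5 FPKM on sucrose, a log2 difference of -2.45 ± 0.46 (SE, adjusted p = 0.00045). leu-1 had 546.1, 650.1 and 468.9 FPKM on Avicel, against 1406, 861.0 and 763.1 FPKM on sucrose. Its libraries also did not overlap, but the difference was smaller, -0.82 ± 0.27 (SE, adjusted p = 0.016), and it was not called in 3 of the alternatives, with adjusted p = 0.061 without Avicel replicate 3, 0.084 without sucrose replicate 1 and 0.11 with voom.

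The arginine pathway was represented by 5 of the 12 genes with an arg symbol or cpc-1. arg-2 and arg-3 encode the small and the large subunit of the carbamoyl-phosphate synthetase for arginine. arg-3 had 27.8, 20.3 and 6.85 FPKM on Avicel at 1 h, against 3734, 634.5 and 692.9 FPKM on sucrose at 1 h. Replicate 1 was the highest of the sucrose libraries, the groups did not overlap, and the log2 difference was -6.13 ± 0.67 (SE, adjusted p = 4e-06). arg-2 fell less, by 2.62 on the log2 scale. For arg-10, which encodes argininosuccinate lyase, Avicel gave 1044, 203.9 and 134.0 FPKM at 1 h, against 4052, 301.3 and 224.6 FPKM on sucrose. Replicate 1 was far above the others on both media and the groups overlapped, with a log2 difference of -1.09 ± 0.89 (SE, adjusted p = 0.31). It was lower on Avicel for each of the 3 replicate numbers. With the replicate number as a block in a limma fit of these 6 libraries it was called (SE 0.31, adjusted p = 0.025). That fit leaves 2 residual degrees of freedom. With the block in a fit of the 5 triplicates arg-10 was not called. At 4 h arg-10 stood at 49.2, 44.6 and 43.8 FPKM on Avicel, against 1949, 2184 and 1694 FPKM on sucrose. Sulfur metabolism was represented by cys-11 for ATP sulfurylase, which fell by 4.93 at 1 h, and eth-1 for S-adenosylmethionine synthetase, which fell by 3.31. aro-1, the pentafunctional arom protein, and aro-3, chorismate synthase, fell by 2.00 and 1.99. The call for aro-1 was lost without Avicel replicate 3 (adjusted p = 0.052), without sucrose replicate 1 (0.054) and with only the 6 libraries of the comparison (0.06). The calls for ilv-4 and arg-5 were lost in several alternatives, with adjusted p up to 0.19 in each.

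Other biosynthetic members moved the same way. The gene for, which encodes serine hydroxymethyltransferase, the purine genes ad-5 and ad-7, for AICAR transformylase and amidophosphoribosyltransferase, and the vitamin B6 gene pdx-1 all fell on Avicel at 1 h, by 2.65 to 5.56. ad-7 had 8.52, 15.2 and 9.80 FPKM on Avicel at 1 h, against 781.7, 433.0 and 516.2 FPKM on sucrose. The fatty acid synthase genes cel-1 and cel-2 lie next to each other on supercontig 4, at 4422512 to 4428535 and 4432594 to 4439201 as the deposited files list them (the genome build is not given in the sources used here). cel-2 had 29.7, 33.5 and 21.6 FPKM on Avicel at 1 h, against 398.9, 470.7 and 688.4 FPKM on sucrose, and no library of one medium reached the other. The log2 differences were -4.14 ± 0.43 (SE, adjusted p = 2.3e-06) for cel-2 and -3.34 ± 0.45 (SE, adjusted p = 2.7e-05) for cel-1. Inositol-1-phosphate synthase, encoded by inl, had 515.6, 579.6 and 387.3 FPKM on Avicel at 1 h, against 2327, 1017 and 1100 FPKM on sucrose, a log2 difference of -1.50 ± 0.50 (SE, adjusted p = 0.019). That call was lost with voom (adjusted p = 0.061), without Avicel replicate 3 (0.064) and without sucrose replicate 1 (0.09).

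A group of 4 members with a role in mitochondria, picked from those with a symbol and not a full list, also fell on Avicel at 1 h. They were cyc-1 (cytochrome c), hsp60 (the mitochondrial chaperonin), cyt-19 (an RNA chaperone for splicing of mitochondrial introns) and ndi-1 (an alternative NADH dehydrogenase), with log2 differences of -6.96 to -3.12. cyt-19 had 8.22, 9.81 and 5.97 FPKM on Avicel at 1 h, against 1108, 1126 and 1064 FPKM on sucrose. The log2 difference was -6.96 ± 0.34 (SE, adjusted p = 9.2e-09). Of 43 tested genes with a nuo, cox, cyt, atp or aod-1 symbol, cyt-19 was the only member, 12 fell at 1 h and 31 were not called, with a median of -0.20. The hsp70-2 gene, for a heat shock protein of the 70-kDa family, had 775.7, 650.5 and 336.0 FPKM on Avicel at 1 h, against 20606, 14980 and 16402 FPKM on sucrose, and fell by 4.95.

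Most members carry no symbol in the table and are known here by locus number alone. The most abundant member, NCU00979, had 2657, 5795 and 5888 FPKM on Avicel at 1 h, against 26582, 21307 and 22850 FPKM on sucrose, a log2 difference of -2.39 ± 0.65 (SE, adjusted p = 0.006) between groups that did not overlap. The largest differences at 1 h belonged to NCU05651 (-8.75) and its neighbour NCU05650 (-8.68). NCU05650 had 2.03, 3.51 and 1.95 FPKM on Avicel at 1 h, against 1460, 1224 and 1540 FPKM on sucrose. Both genes lie 134 bases apart on supercontig 6. NCU05651 was listed at 0 FPKM in all 3 Avicel libraries, so its fitted difference depends on the pseudocount. There were 7 pairs of adjacent members, 14 members in all, lys-3 and NCU03009 among them.

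**Figure D3:**
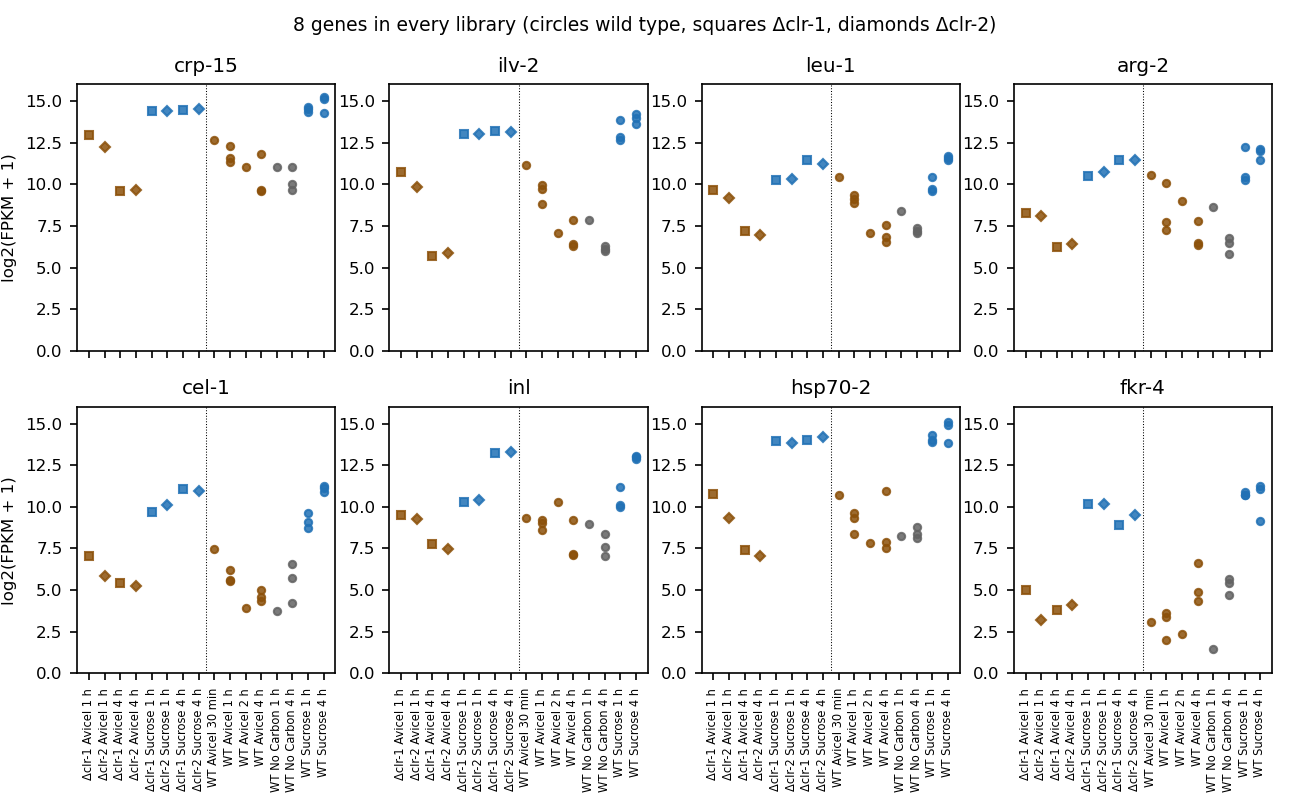
log2(FPKM + 1) of 8 members in every library, by group, with the deletion strains left of wild type; the genes were chosen after their values were seen. Circles are wild type, squares the clr-1 deletion and diamonds the clr-2 deletion, with Avicel in brown, no carbon in grey and sucrose in blue. crp-15 is lower on Avicel at 4 h than at 1 h in the deletion strains, inl is higher on sucrose at 4 h than at 1 h in those strains, and fkr-4 is low on Avicel from 30 min onward.

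The gene lists around these pathways were not all members, and some of their other genes also fell. Of 17 sulfur and methionine genes, 2 were members, 12 fell on Avicel at 1 h, and the median was -1.64. Of 13 aromatic amino acid and histidine genes, 2 were members and 7 fell, with a median of -0.86. Of 12 arginine genes 7 fell and 2, arg-14 and arg-15, rose; the activator gene cpc-1, in that list but no member, fell by 2.09. None of the 6 glycolysis genes, 2 sugar uptake genes or 14 proton pump genes were members; 3 of the glycolysis genes fell and 1 rose, both sugar uptake genes rose, and 11 of the pump genes rose. All 4 lysine genes, 6 of 7 purine and pyrimidine genes and 4 of 5 sterol and fatty acid genes fell, with 2 members in each list, and 3 of the 4 measured genes of the branched-chain list fell, all of them members. That list does not hold ilv-4 and ilv-6, members that fell by 0.97 and 2.24. Of the 2 fermentation genes 1 rose, and the 1 translation factor gene fell. In the deletion strains at 4 h, 14 of the 17 sulfur genes, 10 of the 12 arginine genes, all 13 aromatic and histidine genes, all 6 glycolysis genes and 23 of the 43 respiratory genes fell. These medians and counts are descriptions. Of all tested genes, 24.6% were lower and 37.3% higher on Avicel at 1 h in wild type. In the deletion strains at 4 h, 18.9% were lower and 27.7% higher.

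The wild-type time course on Avicel is described here by the level of the members. Relative to sucrose at 1 h, the median log2 difference over all members was -3.59 at 30 min, -4.87 at 1 h, -5.59 at 2 h and -4.81 at 4 h. The 41 members at 10000 FPKM or more on sucrose at 4 h had medians of -1.62, -2.33, -3.56 and -4.02 at those times. The 87 members under 1000 FPKM had -6.13, -6.88, -6.79 and -5.24. Over the 3 times that the choice did not use, the median of the abundant class was lower at each later time. The 4 h Avicel and sucrose libraries chose the members, so the 4 h values are partly fixed by that choice. The classes were chosen after the values were seen, use the 4 h sucrose level, and have no test. The 30 min and 2 h libraries are single and have short reads, and they list 10 and 21 members at 0 FPKM. Replicate 1 at 1 h, also of short reads, lists 30 members at 0 FPKM.

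**Figure D4:**
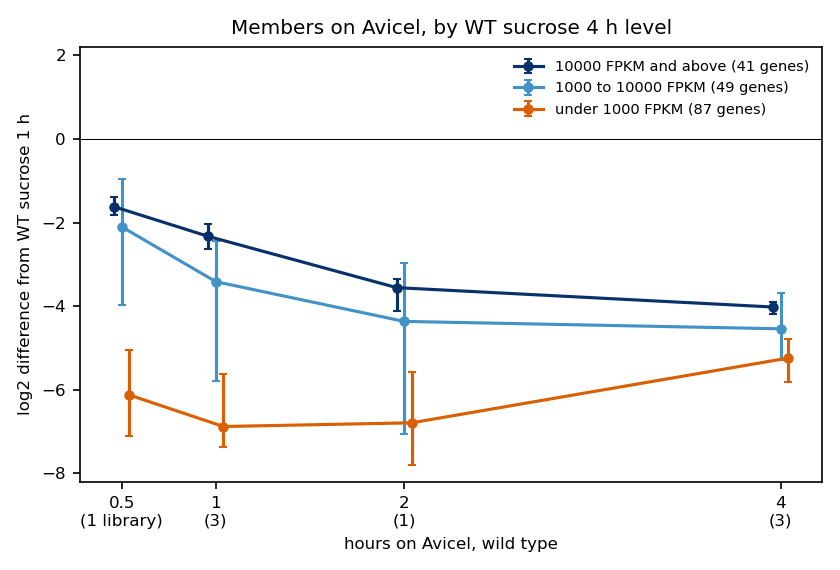
Median log2 difference from wild type on sucrose at 1 h (vertical) against hours on Avicel (horizontal), for members grouped by their mean level on sucrose at 4 h; bars span the quartiles over genes. The class at 10000 FPKM or more is at -1.62 at 30 min and -3.56 at 2 h, and the class under 1000 FPKM is at -6.13 at 30 min; the 4 h Avicel libraries were used to choose the members.

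The deletion strains gave the medium comparison at 4 h in libraries that the choice did not use. All 177 members fell on Avicel relative to sucrose in the mean of both strains by limma, against 18.9% of all tested genes, while 27.7% of tested genes rose. The median was -4.73 in members and 0.19 in all tested genes, and both Avicel libraries lay below both sucrose libraries for every member, against 37.5% of tested genes. Taken alone, the clr-1 deletion gave 173 members lower (12.5% of tested genes were lower and 15.2% higher) and the clr-2 deletion 177 (12.9% lower and 17.7% higher). Each of these single-strain tests sets 1 library against 1. All tests of the deletion strains take their spread from the wild-type triplicates, with the deletion libraries assumed to vary alike. Those triplicates include the 4 h libraries that chose the members.

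ilv-2 had 51.8 FPKM in the clr-1 deletion and 57.6 FPKM in the clr-2 deletion on Avicel at 4 h, against 9333 and 9209 FPKM on sucrose. Its log2 difference was -7.38 ± 0.53 (SE, adjusted p = 3.4e-07). crp-15 had 779.8 and 809.5 FPKM on Avicel at 4 h, against 22705 and 24130 FPKM on sucrose, a log2 difference of -4.88 ± 0.67 (SE, adjusted p = 6.1e-05). The strains were close to each other for both genes. All 16 amino acid synthesis members fell at 4 h, as did all members of the protein synthesis, nucleotide, lipid and mitochondrial groups. The smallest difference was that of NCU00265, -1.85 ± 0.46 (SE, adjusted p = 0.0049).

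Between the strains themselves, limma called 0 members in the clr-1 deletion against the clr-2 deletion on Avicel at 4 h and 0 on sucrose at 4 h, with 0 members at an unadjusted p under 0.05 in either and 0 with voom. Over all tested genes, 0.0116% were lower and 0.0464% higher on Avicel, and 0% lower and 0.0348% higher on sucrose. The members' log2 differences between the strains ran from -1.20 to 1.44 on Avicel and from -1.15 to 0.87 on sucrose. With 1 library a strain, differences of this size could not be called.

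At 1 h, 139 members fell on Avicel relative to sucrose in the deletion strains, against 16.4% of tested genes, while 25.3% of tested genes rose. The median was -4.11 in members and 0.28 in all. Both Avicel libraries lay below both sucrose libraries for 174 members, and for 34.6% of tested genes. Of the role groups, 10 of 16 amino acid synthesis genes, 1 of 4 protein synthesis genes, 2 of 3 lipid genes, all 4 genes of one-carbon, nucleotide and vitamin synthesis and all 4 mitochondrial genes fell. In the deletion strains against wild type, 0 members were called on Avicel at 1 h by limma or by voom. An unadjusted limma p under 0.05 was found for 9 members and for 331 of the 8629 tested genes. By adjusted p, 0.0811% of all tested genes were lower and 0% higher. The Avicel difference itself was also compared between deletion strains and wild type at 1 h, in a test also added after the values were seen. It had an unadjusted limma p under 0.05 in 13 members and in 482 of the 8629 tested genes. It was called in 0 members by both tools, and in 0% of tested genes either way. Its values ran from -1.27 to 3.06 with a median of 0.78, against -0.01 over all tested genes. Without wild-type Avicel 1 h replicate 1 this gave 1 call, and without all short-read libraries 7, with the share of all tested genes not counted. The members were chosen on wild type alone, which favours a larger Avicel difference in wild type, so the median of 0.78 is not read as a result about the strains.

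On sucrose at 1 h, 158 of 177 members had a lower fitted value in the deletion strains than in wild type, with a median log2 difference of -0.41 in members and 0 in all tested genes. Both deletion libraries lay below all wild-type libraries for 94 members, and for 19.6% of tested genes. The members were chosen for high sucrose values in wild type alone. Any difference between strains that lasts from 1 h to 4 h thus favours this direction, and it is not read as a result about the strains. limma called 1 member, NCU00265. An unadjusted limma p under 0.05 was found for 2 members and for 542 of the 8629 tested genes. NCU00265 had 164.5 FPKM in the clr-1 deletion and 86.3 FPKM in the clr-2 deletion at 1 h, against 1165, 991.6 and 908.4 FPKM in wild type. The log2 difference was -3.08 ± 0.42 (SE, adjusted p = 0.0064). Over all tested genes 0.209% were called lower and 0.0348% higher. The count was 2 without wild-type Avicel 1 h replicate 1 and 7 without all short-read libraries, with the share of all tested genes not counted. At 4 h on sucrose NCU00265 had 109.2 and 204.2 FPKM in the deletion strains, against 757.9, 837.1 and 762.4 FPKM in wild type. Those wild-type libraries chose the members, so that comparison has no test. Over all members at 4 h, the summed share on sucrose was 16.0% in the clr-1 deletion and 17.2% in the clr-2 deletion, against 15% in the short-read replicate 1 and 23.1% and 22.8% in the other wild-type libraries. On Avicel it was 0.923% and 0.866%, against 2.56% in the short-read replicate 1 and 0.744% and 0.745% in the others. The wild-type values chose the members, and nothing is read from these shares about the strains.

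On fresh sucrose few members were called between 4 h and 1 h in the deletion strains. limma called 2 members higher at 4 h than at 1 h and 1 lower, against 1.95% and 1.37% of tested genes. Both 4 h libraries lay below both 1 h libraries for 88 members (33.0% of tested genes) and above them for 76 (40.8%). Fitted differences were negative for 74 of the 87 members under 1000 FPKM, with a median of -1.21. They were negative for 2 of the 41 members at 10000 FPKM or more, with a median of 0.29. This split by level was not tested. inl had 9726 and 10142 FPKM at 4 h, against 1252 and 1346 FPKM at 1 h, a log2 difference of 2.93 ± 0.62 (SE, adjusted p = 0.025). lao, which encodes L-amino acid oxidase, had 380.7 and 355.3 FPKM at 4 h, against 22.4 and 53.4 FPKM at 1 h, a difference of 3.37 ± 0.55 (SE, adjusted p = 0.0055). NCU08421 had 85.7 and 125.5 FPKM at 4 h, against 332.8 and 390.0 FPKM at 1 h, and fell by 1.79 (adjusted p = 0.034). The count depends on the short-read libraries, whose part in the spread was not tested further. Without them 79 members were lower and 21 higher. Without wild-type sucrose 4 h replicate 1 alone 14 were lower and 2 higher. There were 7 calls without wild-type Avicel 1 h replicate 1 and 6 without wild-type Avicel 4 h replicate 1. With voom 25 were lower and 3 higher. The share of all tested genes was not counted under these settings, so these counts are not read as a result about the members.

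The change on Avicel between the same times was compared in a test added after the values were seen. Of the members 65 fell at 4 h relative to 1 h and 0 rose, against 9.73% and 7.95% of tested genes. The choice asked for low values on Avicel at 4 h and set no condition at 1 h, which favours a fall between these times. The direction of this count is thus not read as a result about the members. ilv-2 had 51.8 and 57.6 FPKM at 4 h, against 1751 and 918.6 FPKM at 1 h, and fell by 4.51 (adjusted p = 0.00017). crp-15 had 779.8 and 809.5 FPKM at 4 h, against 8055 and 4895 FPKM at 1 h, and fell by 2.98 (adjusted p = 0.0087). cyt-19 was not called and had 12.5 and 15.7 FPKM at 4 h, against 14.1 and 8.50 FPKM at 1 h, with overlapping libraries. Without the short-read libraries 97 fell and 12 rose, and the share of all tested genes was not counted there.

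The difference between Avicel and sucrose was itself compared between 4 h and 1 h in the deletion strains, a test added after the values were seen. It was larger at 4 h for 25 members and smaller for 1, against 3.04% and 2.42% of tested genes. The choice set a fold at 4 h and none at 1 h, which favours a larger difference at 4 h. The direction of this count is thus not read as a result about the members. Amino acid synthesis gave 8 of the 25. ilv-2 had a log2 difference of -7.38 at 4 h and -2.73 at 1 h, a change of -4.65 ± 0.75 (SE, adjusted p = 0.0051). leu-1 had -4.25 at 4 h and -0.87 at 1 h, a change of -3.39 ± 0.46 (SE, adjusted p = 0.0019). For inl, -5.66 at 4 h and -0.96 at 1 h, the change was -4.70 ± 0.87 (SE, adjusted p = 0.0094). The 4 protein synthesis genes changed by -3.29 to -3.07 and none of them was called. The count was 15 with voom, 63 without wild-type Avicel 4 h replicate 1, 45 without wild-type sucrose 4 h replicate 1 and 137 without all short-read libraries. For these settings too, the share of all tested genes was not counted.

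**Figure D5:**
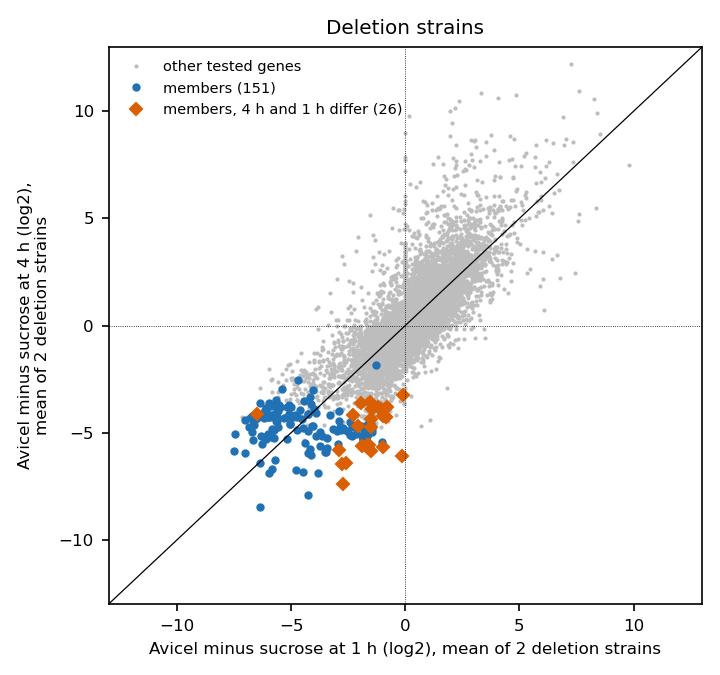
Log2 difference of Avicel from sucrose in the mean of 2 deletion strains at 1 h (horizontal) and at 4 h (vertical), for tested genes outside the members (grey), members (blue) and the 26 members for which 4 h and 1 h differ (orange diamonds); the solid line marks equal differences. 25 of the 26 lie below the line and NCU08421 lies above it.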

How the data were processed

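RNA-seq of 26 libraries in 16 groups was analysed. The authors deposited FPKM per transcript, made with TopHat and Cufflinks 0.9.3 per the submitters' processing notes, with a coverage signal, confidence bounds and lengths per the file headers. The genome build and annotation are not given in the sources used here. FPKM of 9907 transcripts was summed to 9733 genes. Reads were recovered as coverage times effective length over read length; 87.5% to 93.0% came out whole (tolerance 0.02).

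limma 3.58.1 (R 4.3.3) with a trend fitted log2(FPKM + 1) of the 8629 genes whose mean over all libraries reached 1 FPKM, 1 mean per group, with 10 residual degrees of freedom (prior 3.35, median residual SD 0.391). Fold changes of low genes are understated by the pseudocount. Tests are two-sided, and p is Benjamini-Hochberg adjusted over all tested genes, called under 0.05. The labels name biological triplicates in wild type; single libraries borrow that spread. The procedure was tested on simulated data.

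The members, lists and role groups were chosen with earlier results of these data known. Named genes are the members with a symbol, those highest on sucrose, those with the largest and smallest differences, those nearest the thresholds, clr-1 and clr-2, and the list genes with the highest level; further symbols, the role groups, level classes and plotted genes were added after values were seen, as were 3 of the 14 comparisons. Deviations of same-numbered libraries from their group means correlated at 0.283, 0.176 and 0.236 between Avicel and sucrose at 1 h. Replicates 2 and 3 of unlike number gave 0.174 and 0.188 there, so the numbers are not shown to be pairs. The main fit used no pairs, and the replicate number entered only as a block in alternatives. Across all triplicates same-numbered libraries ran from -0.314 to 0.453 and the others from -0.495 to 0.446. The labels name no shared day or batch. Alternatives changed pseudocount, filter, scaling, model, libraries and replicate block. Promoter motifs and sequences are not analysed here.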

Additional observations from a re-analysis of the deposited data

Results flagged for a closer look

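The difference of Avicel from sucrose in the deletion strains was not the same at 4 h and at 1 h by a test of the change itself (limma, adjusted p under 0.05). It was more negative at 4 h for 25 members and less negative for 1, NCU08421, against 3.04% and 2.42% of tested genes. The test was added after the values were seen. The count was 15 with voom and 18 to 63 without 1 library. The choice set a fold at 4 h and none at 1 h, which favours this direction, so the count is not read as a result about the members. Among members of amino acid synthesis, the log2 change was -4.65 for ilv-2, -4.39 for leu-2, -3.89 for ilv-6, -3.72 for eth-1, -3.71 for aro-3, -3.39 for leu-1, -3.25 for arg-4 and -3.23 for ilv-4. It was -4.70 for inl, -3.80 for pdx-1, -2.99 for lao and -1.88 for ace-3. Of members known by locus number, it was -3.98 for NCU06432, -3.40 for NCU08473 and -3.14 for NCU09648. For NCU00149 it was -5.95, a value that depends on the pseudocount, since the gene was listed at 0 FPKM in both deletion strains on Avicel at 4 h.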

How the results depend on the processing

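Members were 394 with 8 times in the rule, 53 with 32 times and 266 with medians of libraries in place of means; leaving out 1 library gave 135 to 242. The calls on Avicel against sucrose kept their direction in all alternatives run: 165 to 175 members at 1 h in wild type, 175 to 177 at 4 h in the deletion strains and 130 to 175 at 1 h in the deletion strains. Without carbon, voom called 167 lower and 1 higher, and 173 lower and 2 higher were called without the short-read libraries. For Avicel against sucrose at 1 h in wild type, the replicate block gave 172 members in a fit of the 5 triplicates, with no call changed, and 174 in a fit of the 6 libraries of the comparison, chosen after seeing the data, where NCU00149 and arg-10 gained the call and no other call changed.

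The change on sucrose in the deletion strains, 3 members, was 6 with a pseudocount of 10 FPKM, 28 with voom, 100 without the short-read libraries and 2 to 16 without 1 library (16 without wild-type sucrose 4 h replicate 1). Deletion against wild type on sucrose at 1 h gave 7 without the short-read libraries and 1 to 2 without 1 library (2 without wild-type Avicel 1 h replicate 1), and on Avicel 1 without the short-read libraries. The fall on Avicel between 1 h and 4 h in the deletion strains gave 109 without the short-read libraries. The change of the Avicel difference, deletion strains against wild type, gave 7 without them and 0 to 1 without 1 library (1 without wild-type Avicel 1 h replicate 1). The same change between 4 h and 1 h gave 15 with voom, 137 without the short-read libraries and 18 to 63 without 1 library (63 without wild-type Avicel 4 h replicate 1). The cause of these shifts was not tested. The share of all tested genes called was not counted under the alternatives, so the counts are not read as results about the members. The median of all genes for Avicel against sucrose at 1 h, 0.34, was 0.20 with rescaling by the median of gene ratios, 0.13 without a filter and 0.60 with voom; in the deletion strains at 4 h, 0.19, it was 0.77 with voom. Of the single-gene values, 3000 kept their call and direction and 21 lost the call.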
